A study of Mus musculus with 18 samples.

Results

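The genes described here are 10 transcription factors of the AP-1 and immediate early response, chosen by name as a family, by a rule that used no measured value, though with earlier results of these data known. They are *Fos*, *Fosb*, *Fosl1* and *Fosl2* of the Fos family, *Jun*, *Junb* and *Jund* of the Jun family, and *Atf3*, *Egr1* and *Myc*. The files list 36528 genes, of which 15521 were tested, and all 10 factors were found and tested. RNASeq was performed on cultured renal proximal tubular epithelial cells (RPTEC) of C57BL/6 mice, bought as primary cells from a vendor. Cells received vehicle (DMSO), TWEAK at 100 ng/mL, or TWEAK at 100 ng/mL with 3 μM NIK SMI1, and were harvested after 6 h or 24 h. TWEAK is a cytokine of the TNF superfamily that signals through its receptor Fn14, and NIK SMI1 is a small molecule inhibitor of NF-κB inducing kinase (NIK), the kinase that starts non-canonical NF-κB signaling. Each of the 6 groups held 3 samples. No group received NIK SMI1 without TWEAK, so an effect of the inhibitor on the TWEAK response and an effect of the inhibitor on its own cannot be told apart.

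AP-1 is a dimer of basic leucine zipper proteins, made of 2 Jun proteins or of a Jun and a Fos protein, and some ATF proteins join it as well. Many of these genes are immediate early genes: a stimulus induces them within minutes through pre-made factors, and their transcripts are short lived. In renal epithelium they are known to rise after injury and mitogens, and ATF3, EGR1 and MYC are well known stress and growth factors of the same early wave. The earliest samples here were taken at 6 h of stimulation.

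The libraries held 18040966 to 51956444 counted reads (median 35374254), so that 3 reads correspond to 0.0585 to 0.169 CPM, the count scaled to a common library size by TMM. The 10 genes had 66 to 23598 reads per library, *Fosb* being the one with the fewest, and none was limited by depth to a level near 3 reads. Epithelial and tubule genes were abundant: the summed level of 16 tubule markers was 8319 to 11850 CPM, led by the keratins *Krt18*, *Krt8* and *Krt19*, followed by the cadherin *Cdh1*, and *Pax8* (29.0 to 49.4 CPM) was present. Genes of the proximal tubule were uneven. The phosphate transporter *Slc34a1* had 0 reads in 15 of 18 libraries, the endocytic receptor *Lrp2* reached at most 0.571 CPM and the water channel *Aqp1* at most 0.443 CPM. The endocytic receptor *Cubn* (1.98 to 4.52 CPM), the injury marker *Havcr1* (2.73 to 5.00 CPM) and the secreted peroxidase *Gpx3* (300 to 742 CPM) had reads in every library. Among lists for other cells, the summed level ranged from 0.545 to 2.49 CPM for distal tubule and collecting duct. It was 13.1 to 19.8 CPM for fibroblasts and 0.190 to 0.795 CPM for endothelium. For leukocytes it was 19.0 to 25.4 CPM, mainly *Cd68* and *Csf1r* (5.34 to 12.1 CPM), with *Ptprc* at most 0.297 CPM. For podocytes it was 33.4 to 74.6 CPM, almost all *Synpo*, with *Nphs1* at 0 reads in 16 of 18 libraries. In bulk RNA, fewer cells of a type and less RNA per cell cannot be told apart.

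At 24 h the summed level of 13 pancreatic islet genes, among them *Ins2*, was 16.0 to 22.3 CPM with vehicle. It was 15.7, 0.312 and 4.91 CPM in TWEAK samples 1 to 3, but at most 0.227 CPM in the 3 samples with TWEAK and NIK SMI1. At 6 h it was 17.6 to 35.2 CPM in all 9 libraries. The comparison of NIK SMI1 with TWEAK at 24 h is therefore also given for TWEAK sample 2 alone. That was the 1 TWEAK library with islet reads as low as those with the inhibitor. No such fit was made for TWEAK with NIK SMI1 against vehicle, for the 24 h minus 6 h differences or for the family shares. TWEAK against vehicle at 24 h is not evened out by TWEAK sample 2 alone, since vehicle kept its islet reads. The part of the islet reads in any of these was not tested.

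Promoter sequences bear on genes that share a stimulus. The set at hand, placed by RefSeq starts (GRCm38.p6), covered 7 of the 10 genes, namely *Fos*, *Fosb*, *Fosl2*, *Jun*, *Junb*, *Jund* and *Atf3*. The 250 bases before each start were searched on both strands for the AP-1 site TGACTCA, the CRE TGACGTCA, the E-box CACGTG, the CArG box bound by SRF, and the NF-κB consensus. None of the 7 held a match to the first 4 motifs in these bases. The 4 motifs occur in 4.46%, 1.55%, 6.02% and 1.47% of 32851 promoters of the same length. Sites further upstream were not searched, nor were variants of these motifs, apart from that described below for *Jun*. The NF-κB consensus, present in 3.9% of promoters, was matched in *Fosl2*, *Fosb* and *Fos*. These 3 matches are shown with 10 bases on each side, 5′ to 3′ on the strand of the gene, with the match in capitals, because the 3 genes responded differently to TWEAK: *Fosl2* rose and *Fosb* fell at both times, and *Fos* passed the test only at 6 h.
Fosl2: agatcggggaGGGAGTCCCCcagagctgcc
Fosb: acgcagccttGGGGACCCCCgagaccccca
Fos: ggaaggtctaGGAGACCCCCtaagatccca
The *Fosl2* window (chr5:32136280-32136309, plus strand, match at 182 to 173 bases before the RefSeq start) overlaps an exon annotated in GENCODE M21 or the RefSeq extent of the gene. The *Fosb* window (chr7:19310214-19310243, minus strand, match at 188 to 179 bases before the start) and the *Fos* window (chr12:85473666-85473695, plus strand, 214 to 205 bases) lie outside annotated exons.

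The longer upstream stretches of *Jun* and *Fosb* are shown because these 2 genes moved in opposite directions. *Jun* holds, 45 to 38 bases before its start, the sequence TGACATCA, a 1-base variant of the CRE that is present in 2.93% of promoters and was added to the search after the sequence had been seen. It is in capitals in the 250 bases before the start (chr4:95052223-95052472, minus strand, outside annotated exons).
Jun: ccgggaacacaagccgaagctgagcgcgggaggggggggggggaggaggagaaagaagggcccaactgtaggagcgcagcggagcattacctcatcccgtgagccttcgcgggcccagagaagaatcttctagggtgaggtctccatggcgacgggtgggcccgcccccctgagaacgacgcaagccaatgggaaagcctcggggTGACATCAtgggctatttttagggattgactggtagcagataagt
Of *Fosb*, the 177 bases outside annotated exons are shown (chr7:19310119-19310295, minus strand), with the NF-κB match in capitals.
Fosb: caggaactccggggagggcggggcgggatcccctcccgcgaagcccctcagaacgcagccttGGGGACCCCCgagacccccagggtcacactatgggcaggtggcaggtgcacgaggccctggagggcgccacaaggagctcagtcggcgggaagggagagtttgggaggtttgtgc
A match is a description of the letters and not evidence that a factor was bound in these cells.

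Per length of transcript, the summed level of the Jun family exceeded that of the Fos family in every group, and *Junb* was highest of the 10 genes. In vehicle at 6 h the mean deposited RPKM was 205.7 for *Junb*, 110.3 for *Jund* and 73.6 for *Myc*. *Fosl1* (36.9 RPKM), *Fosl2* (24.6), *Jun* (19.9), *Egr1* (18.5) and *Atf3* (11.8) followed, and *Fos* (2.80) and *Fosb* (1.87) were lowest. The samples of no 2 neighbors in this order overlapped, and the order was the same in vehicle at 24 h and with NIK SMI1 at 6 h. With TWEAK *Myc* and *Jund* came level, at 97.1 and 96.1 RPKM at 6 h and 101.0 and 105.5 RPKM at 24 h, and their samples overlapped. At 24 h of TWEAK *Fosl2* (32.9 RPKM) passed *Fosl1* (28.7) and *Atf3* (14.0) passed *Egr1* (11.2), without overlap of samples. With NIK SMI1 at 24 h both pairs overlapped. *Fosl1* shares exonic bases with *Ccdc85b*, as described below, which limits its place in this order.

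In vehicle cells, 9 of the 10 genes were lower at 24 h than at 6 h, and *Jund* was the exception. *Egr1*, a zinc finger factor of the early growth response, had 58.4, 61.5 and 60.9 CPM at 6 h and 34.9, 36.0 and 36.5 CPM at 24 h in vehicle. It fell by 0.76 on the log2 scale (SE 0.049, adjusted p = 2.12e-12, edgeR's quasi-likelihood test with Benjamini-Hochberg adjustment, as in all tests across genes below). *Atf3* fell by 0.65, *Fosb* by 0.57, *Junb* by 0.51, *Fosl1* by 0.48, *Fos* by 0.42, *Fosl2* by 0.35, *Jun* by 0.32 and *Myc* by 0.27 on the same scale, with no overlap between the 2 times for any of the 9. *Jund*, the Jun gene known to depend least on stimulation, differed by -0.04 (95% confidence interval -0.17 to 0.09). Of all genes tested, 14.4% were lower and 15.5% were higher at 24 h, and the median log2 change was -0.45 over the 10 genes against 0.01 over all genes. Each TWEAK comparison below was therefore made against vehicle of the same time.

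TWEAK left *Junb*, *Jun*, *Fosl2*, *Atf3* and *Myc* higher at both times, *Fos* and *Egr1* higher at 6 h, and *Fosb* lower at both times. At 6 h, 7 of the 10 genes were called higher and 2 lower at an adjusted p below 0.05, where 11.7% and 12% of all tested genes were called. At 24 h, 5 were called higher and 1 lower, against 18.3% and 20.7% of all genes. Across the 10 genes the median change on the log2 scale was 0.28 at 6 h and 0.29 at 24 h, against -0.00 and -0.01 over all genes. The changes were modest in size. TWEAK inducible genes, defined by more than a 2-fold increase with an adjusted p below 0.05, were 1.75% of all genes at 6 h and 2.34% at 24 h, and 0 of the 10 factors were among them. A decrease of more than 2-fold was found in 0.541% of genes at 6 h and 2.87% at 24 h, and of the 10 factors only *Fosb* at 6 h was among them. Over the same comparisons the summed tubule markers were lower with TWEAK, at 10540 to 11050 CPM against 11200 to 11760 CPM at 6 h and 8319 to 8456 CPM against 9648 to 9828 CPM at 24 h. The podocyte list was lower as well, at 33.4 to 37.6 CPM against 58.1 to 59.6 CPM at 6 h and 35.0 to 36.8 CPM against 65.4 to 74.6 CPM at 24 h, almost all of it *Synpo*. The distal tubule list was higher, at 1.97 to 2.49 CPM against 0.702 to 0.906 CPM and 1.78 to 2.18 CPM against 0.545 to 0.713 CPM. In this list *Gata3* reached 2.25 CPM, no other gene exceeded 0.248 CPM, and *Umod* had 0 reads in all 18 libraries. With the inhibitor at 24 h the 3 lists lay between vehicle and TWEAK, at 9200 to 9249, 49.4 to 51.4 and 1.53 to 1.61 CPM. The islet list was also lower with TWEAK than with vehicle at 24 h, as given above. The part of these lists in the changes of the 10 genes was not tested.

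**Figure D1:**
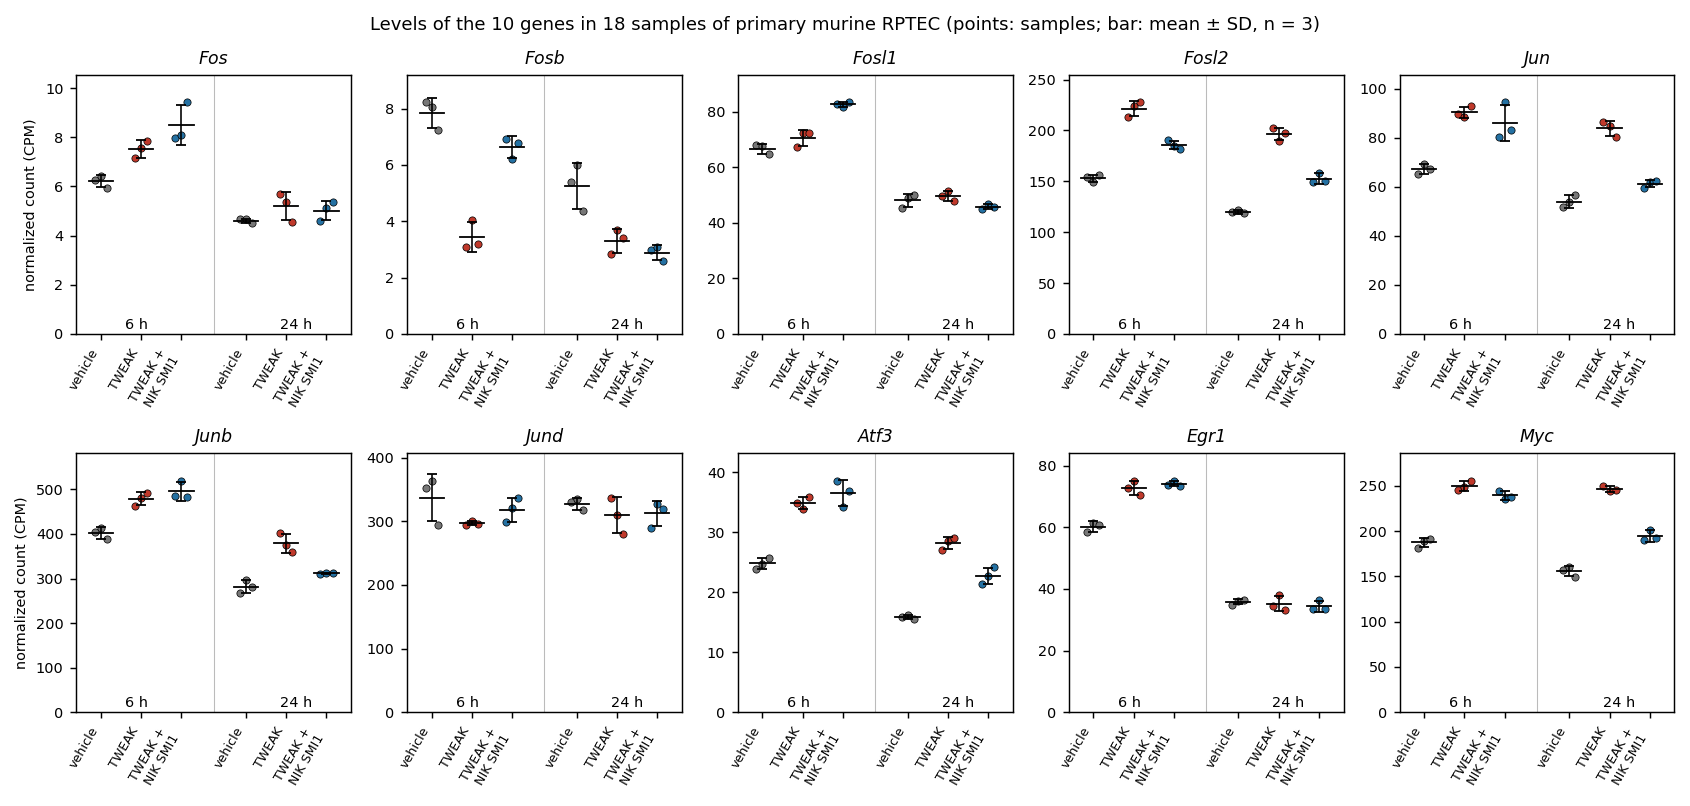
Normalized counts (CPM, y axis from 0, one scale per gene) of the 10 genes in each of the 18 samples, by treatment and time (x axis); bars give the mean ± SD of 3 samples. Fosl2 rose from 149 to 156 CPM with vehicle to 213 to 228 CPM with TWEAK at 6 h, Fosb fell from 7.25 to 8.22 to 3.09 to 4.04 CPM, and the vehicle samples of 9 genes were lower at 24 h than at 6 h.

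Within the Jun family, *Jun* and *Junb* rose and *Jund* did not. *Jun*, the founding member and the main transactivator of the family, had 65.2, 69.2 and 67.4 CPM with vehicle and 89.7, 88.7 and 93.0 CPM with TWEAK at 6 h. At 24 h the values were 51.7, 53.7 and 56.6 CPM with vehicle and 86.4, 84.9 and 80.5 CPM with TWEAK. All TWEAK samples were above all vehicle samples at each time. The rise was 0.43 on the log2 scale at 6 h (SE 0.048, adjusted p = 6.37e-08) and 0.64 at 24 h (SE 0.050, adjusted p = 4.19e-11).

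*Junb*, a Jun protein with weaker transactivation that can restrain JUN, had 404, 413 and 388 CPM with vehicle and 463, 482 and 493 CPM with TWEAK at 6 h, and 267, 296 and 282 CPM against 402, 376 and 360 CPM at 24 h. The groups did not overlap, and the log2 rise was 0.25 at 6 h (adjusted p = 1.77e-05) and 0.43 at 24 h (adjusted p = 2.34e-09). For *Jund* the vehicle samples at 6 h held 352, 364 and 295 CPM and the TWEAK samples 295, 300 and 296 CPM. The groups overlapped through vehicle sample 3. The log2 difference of -0.18 passed the threshold (adjusted p = 0.0344) but not in DESeq2 (adjusted p = 0.0894), not when only the groups compared were fitted (0.0573) and not without vehicle sample 1 or 2 or without any 1 of the TWEAK samples (up to 0.217). At 24 h *Jund* did not pass the test (-0.08, 95% confidence interval -0.21 to 0.05).

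Within the Fos family the 4 genes went different ways. *Fosl2*, which encodes FRA2, a Fos protein that lacks the strong transactivation domain of FOS, had 153.8, 149.3 and 155.8 CPM with vehicle and 213.4, 223.5 and 227.6 CPM with TWEAK at 6 h. At 24 h it had 119.4, 121.7 and 118.6 CPM against 202.1, 189.9 and 197.7 CPM. This was the clearest separation of the family: the log2 rise was 0.53 (SE 0.035, adjusted p = 1.51e-12) at 6 h and 0.71 (SE 0.036, adjusted p = 3.69e-15) at 24 h.

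*Fosb*, whose products dimerize with Jun proteins and whose short form is long lived, fell. It had 8.22, 8.07 and 7.25 CPM with vehicle and 3.09, 4.04 and 3.18 CPM with TWEAK at 6 h, a 2.25-fold decrease (log2 -1.17, SE 0.12, adjusted p = 1.53e-08). At 24 h it had 5.41, 6.00 and 4.38 CPM with vehicle and 2.85, 3.68 and 3.39 CPM with TWEAK, a 1.57-fold decrease (log2 -0.65, SE 0.13, adjusted p = 0.000297). Every TWEAK sample was below every vehicle sample of its time.

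*Fosl1*, which encodes FRA1, had 64.7 to 68.0 CPM with vehicle and 67.3 to 72.5 CPM with TWEAK at 6 h, and the groups overlapped (log2 0.09, 95% confidence interval -0.00 to 0.17). At 24 h the difference was 0.06 (95% confidence interval -0.04 to 0.15). *Fos*, the archetypal immediate early gene, had 6.27, 6.41 and 5.95 CPM with vehicle and 7.16, 7.56 and 7.86 CPM with TWEAK at 6 h, without overlap. The log2 rise of 0.28 (SE 0.094, adjusted p = 0.0293) was lost without the filter on low counts (adjusted p = 0.0553) and without vehicle sample 1 or 3 or TWEAK sample 2 or 3 (up to 0.114). At 24 h *Fos* did not pass the test (0.16, 95% confidence interval -0.07 to 0.38).

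Of the remaining 3 genes, *Atf3* and *Myc* rose at both times and *Egr1* only passed the test at 6 h. *Atf3*, a stress induced factor that forms dimers with Jun proteins or with itself, had 24.0, 24.8 and 25.8 CPM with vehicle and 34.9, 33.9 and 35.9 CPM with TWEAK at 6 h. At 24 h it had 15.8, 16.2 and 15.6 CPM with vehicle and 27.0, 28.6 and 29.1 CPM with TWEAK, without overlap at either time. Its rise of 0.84 at 24 h (SE 0.060, adjusted p = 7.24e-12) was the largest log2 increase among the 10 genes, and at 6 h it was 0.49 (adjusted p = 4.89e-08).

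*Myc*, which drives growth and ribosome synthesis as a dimer with MAX, had 181, 189 and 192 CPM with vehicle and 245, 249 and 256 CPM with TWEAK at 6 h. At 24 h it had 157, 161 and 150 CPM against 250, 244 and 246 CPM. The groups were apart at both times, with a log2 rise of 0.41 (adjusted p = 1.52e-10) and 0.66 (adjusted p = 8.41e-15). *Egr1* had 58.4, 61.5 and 60.9 CPM with vehicle and 72.8, 75.1 and 70.6 CPM with TWEAK at 6 h, a log2 rise of 0.27 (adjusted p = 2.68e-05) without overlap. At 24 h its groups overlapped, with 34.9 to 36.5 CPM and 33.2 to 38.0 CPM (-0.02, 95% confidence interval -0.12 to 0.09). The sign at 24 h turned to 0.09 (adjusted p = 0.331) with TWEAK sample 2 alone and to 0.03 without TWEAK sample 3.

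The difference between the 24 h and the 6 h effect of TWEAK was tested directly. It was called higher at 24 h for *Atf3* (0.35, adjusted p = 0.00476), *Myc* (0.25, adjusted p = 0.000875) and *Fosl2* (0.18, adjusted p = 0.0209) and lower for *Egr1* (-0.29, adjusted p = 0.00522), where 3.24% of all genes were higher and 5.67% lower by this test. *Jun* (0.21, adjusted p = 0.0532) and *Junb* (0.17, adjusted p = 0.0612) did not pass it, but both did in DESeq2 (0.0437 and 0.0495) and without the filter on low counts (0.0258 and 0.013). The call of *Fosl2* was lost when any 1 of 5 libraries was left out, namely vehicle 3 or TWEAK 1 at 6 h, or vehicle 1, vehicle 3 or TWEAK 1 at 24 h (adjusted p up to 0.0864). For *Fosb* the smaller decrease at 24 h gave a difference of 0.52 that did not pass the test (adjusted p = 0.0742), although it did without TWEAK sample 2 at 6 h, vehicle sample 2 at 24 h or TWEAK sample 1 at 24 h (as low as 0.026).

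**Figure D2:**
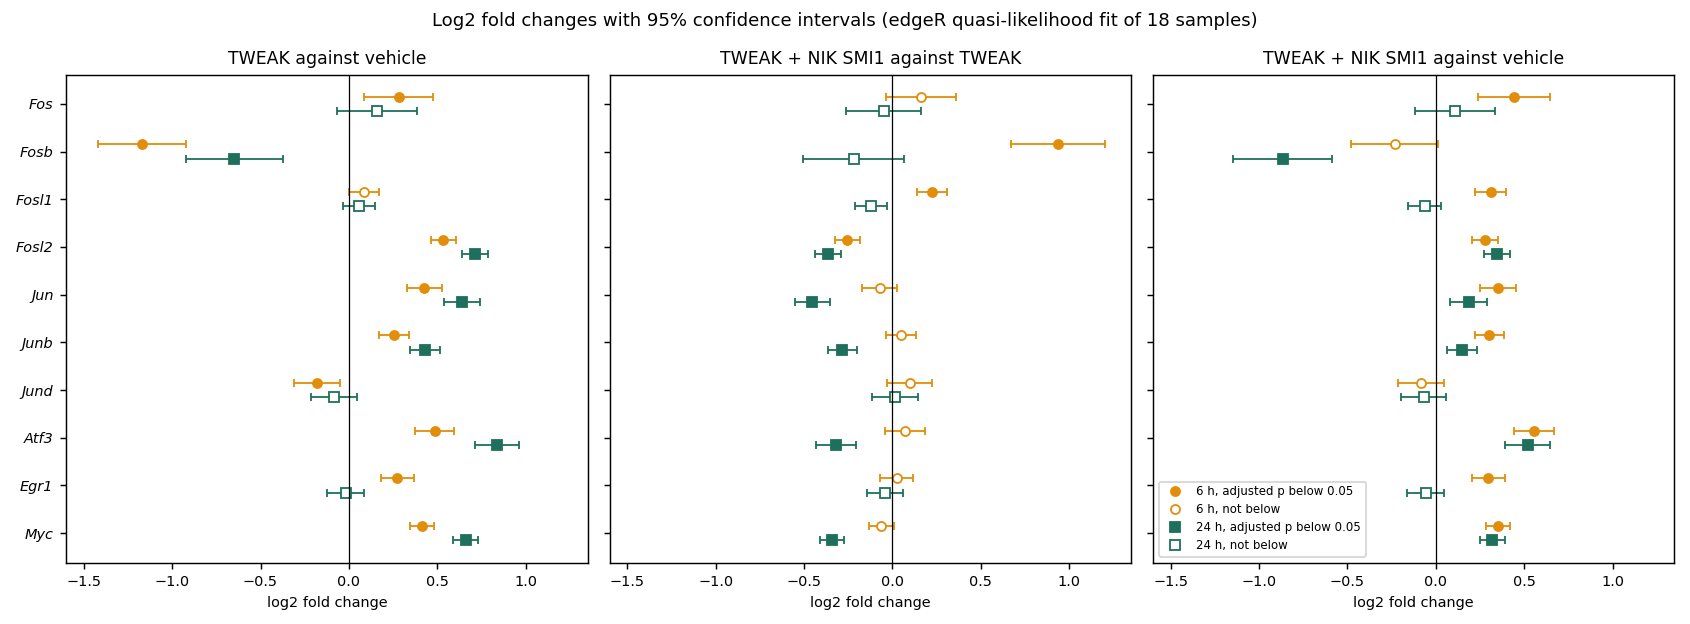
Log2 fold changes (x axis) of the 10 genes (y axis) with 95% confidence intervals in 3 comparisons at 6 h (circles) and 24 h (squares), filled where the adjusted p was below 0.05. Fosb lies far to the left for TWEAK (-1.17 at 6 h) and to the right for NIK SMI1 at 6 h (0.94), and at 24 h Fosl2, Jun, Junb, Atf3 and Myc lie left of 0 in the comparison of NIK SMI1 with TWEAK.

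NIK SMI1 gave different patterns at the 2 times. At 6 h, *Fosb* and *Fosl1* were higher and *Fosl2* was lower with the inhibitor than with TWEAK alone, and the other 7 genes did not pass the test. At 24 h, *Fosl2*, *Jun*, *Junb*, *Atf3* and *Myc* were lower and none was higher. Among all genes, 5.34% were higher and 5.7% lower with the inhibitor at 6 h, and 10.2% were higher and 8.29% lower at 24 h. The median log2 change of the 10 genes was 0.06 at 6 h and -0.25 at 24 h, against 0.00 and 0.01 over all genes. A decrease of more than 1.5-fold with an adjusted p below 0.05 was found in 1.1% of genes at 6 h and 1.75% at 24 h, and 0 of the 10 factors reached it. An increase of that size was found in 0.296% of genes at 6 h, and of the 10 factors *Fosb* was the 1 that reached it.

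*Fosb* had 6.94, 6.21 and 6.77 CPM with TWEAK and NIK SMI1 at 6 h, above the 3.09 to 4.04 CPM with TWEAK alone and below the 7.25 to 8.22 CPM with vehicle. The log2 difference from TWEAK was 0.94 (SE 0.13, adjusted p = 7.35e-06). On the log2 scale of CPM, the inhibitor took back 79.9% ± 6.99 (SD over 3 samples) of the decrease. Here and below, the SD of such a share covers only the 3 samples with the inhibitor, since the vehicle and TWEAK means were held fixed. At 24 h the samples with the inhibitor held 2.97, 3.09 and 2.60 CPM and overlapped with TWEAK alone (log2 -0.22, 95% confidence interval -0.50 to 0.07). The difference between the 2 times was -1.15 (SE 0.19, adjusted p = 0.00058).

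*Fosl2* was lowered by the inhibitor at both times. It had 190.3, 184.5 and 181.9 CPM at 6 h (log2 -0.25, adjusted p = 6.42e-06) and 149.4, 158.5 and 150.2 CPM at 24 h (-0.36, adjusted p = 7.9e-09), in each case between vehicle and TWEAK without overlap. The inhibitor removed 47.8% ± 6.24 of the TWEAK increase at 6 h and 51.1% ± 6.62 at 24 h (SD, n = 3), and its effect did not differ between the times by the test of the difference (-0.11, 95% confidence interval -0.21 to -0.01, adjusted p = 0.224).

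For *Jun*, *Junb*, *Atf3* and *Myc* the decrease was found at 24 h and not at 6 h, and the test of the difference between the times was passed by all 4. *Jun* had 80.5, 94.5 and 83.4 CPM with the inhibitor at 6 h, which overlapped with TWEAK alone (log2 -0.07, 95% confidence interval -0.17 to 0.03). At 24 h it had 59.6, 61.9 and 62.3 CPM, all below TWEAK alone (-0.45, adjusted p = 5.84e-08) and above vehicle, so that 71.2% ± 5.39 of the increase was removed. The difference between the times was -0.38 (adjusted p = 0.00117).

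*Junb* had 311, 313 and 311 CPM with the inhibitor at 24 h (log2 -0.28, adjusted p = 7.95e-06), with 65.8% ± 1.11 of its increase removed. *Atf3* had 21.5, 22.8 and 24.1 CPM (-0.32, adjusted p = 0.000104), with 37.3% ± 10.2 removed. *Myc* had 190, 202 and 192 CPM (-0.34, adjusted p = 1.32e-08), with 51.7% ± 6.95 removed. The samples of these 3 genes also lay between vehicle and TWEAK without overlap at 24 h. At 6 h their log2 differences from TWEAK were 0.05, 0.07 and -0.06, and the differences between the times were -0.33 (adjusted p = 0.00096), -0.39 (0.00323) and -0.28 (0.000774).

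The islet genes, which were near absent with the inhibitor at 24 h and present in TWEAK samples 1 and 3, move with this comparison. Against TWEAK sample 2 alone, where they were at 0.312 CPM, the log2 differences were -0.32 for *Fosl2* (adjusted p = 6.44e-05), -0.47 for *Jun* (2.53e-05), -0.27 for *Junb* (0.0012), -0.33 for *Atf3* (0.00521) and -0.33 for *Myc* (4.77e-05), a fit in which that sample was assumed to vary like the other groups. The 5 decreases were about as large as with all 3 TWEAK samples.

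*Fosl1* was higher with the inhibitor at 6 h than with TWEAK or vehicle. It had 82.9, 81.7 and 83.4 CPM, above all other samples of that time, and differed from TWEAK by 0.22 (adjusted p = 0.00047) and from vehicle by 0.31 (adjusted p = 6.33e-06). At 24 h it had 45.0, 46.8 and 45.7 CPM, below the 48.0 to 51.5 CPM with TWEAK, but the difference of -0.12 did not pass the test (adjusted p = 0.0604, and 0.0414 when only the groups compared were fitted). The change of the effect between the times was -0.34 (adjusted p = 0.00105). The kit did not mark strand, and in GENCODE M21 an exon of *Ccdc85b* on the opposite strand shares 1055 bases with *Fosl1*. *Ccdc85b* (72.6 to 118 CPM) differed by 0.22 with the inhibitor at 6 h (adjusted p = 0.000962) and by -0.15 at 24 h (adjusted p = 0.0215), and reads from the 2 genes cannot be told apart over the shared bases.

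The same limit applies to 3 further genes over shorter stretches. *Jun* shares 232 bases with *Junos*, *Junb* 173 bases with *Prdx2* and *Jund* 543 bases with *Gm11175*. *Junos* was low, at 0.744 to 2.10 CPM, and rose with TWEAK at 24 h (log2 1.27, adjusted p = 3.14e-05), while *Prdx2* (397.5 to 475.2 CPM) did not pass the test for TWEAK at either time (-0.05 and 0.01).

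*Fos*, *Egr1* and *Jund* did not pass the test for the inhibitor against TWEAK at either time. *Fos* had 7.97, 8.10 and 9.42 CPM at 6 h, all above the TWEAK samples, with a log2 difference of 0.16 (95% confidence interval -0.04 to 0.36). *Egr1* had 73.9, 75.0 and 73.5 CPM at 6 h (0.02, -0.07 to 0.12) and 33.4, 36.3 and 33.4 CPM at 24 h (-0.04, -0.14 to 0.06). For *Jund* the differences were 0.10 at 6 h (-0.03 to 0.23) and 0.02 at 24 h (-0.11 to 0.14). By the test of the difference between times, 6 of the 10 genes were lower at 24 h and 0 were higher, against 1.62% and 3.11% of all genes.

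Cells given TWEAK with NIK SMI1 were also compared with vehicle. At 6 h, 8 of the 10 genes were higher and 0 lower than vehicle, where 7.24% of all genes were higher and 6.7% lower. *Atf3* was 0.56 higher on the log2 scale (adjusted p = 3.42e-08), *Fos* 0.44, *Jun* and *Myc* 0.35, *Junb* and *Egr1* 0.30 and *Fosl2* 0.28. *Fosb* was not called (-0.23, 95% confidence interval -0.48 to 0.01). At 24 h 5 genes were higher and 1 lower than vehicle, against 8.07% and 9.83% of all genes. The increases were 0.52 for *Atf3*, 0.35 for *Fosl2*, 0.32 for *Myc*, 0.19 for *Jun* and 0.15 for *Junb*, and *Fosb* was 0.87 lower than vehicle (log2 -0.87, adjusted p = 2.37e-05). The calls of *Jun* and *Junb* at 24 h were lost without vehicle sample 1 (adjusted p = 0.094 and 0.121). These comparisons share their samples with those above, and each is given by its own values. The islet genes were present in vehicle and near absent with the inhibitor at 24 h, and their part in these values was not tested.

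The changes shifted the composition of both families, measured as the share of each gene in the summed deposited RPKM of its family. *Fosl2* made up 36.9%, 36.3% and 38.4% of the Fos family with vehicle at 6 h and 45.5%, 44.7% and 45.3% with TWEAK. With the inhibitor it was 37.5%, 37.1% and 36.0%, which overlapped with vehicle. The level of *Fosl2* itself was still 0.28 above vehicle on the log2 scale, and that of *Fosl1* was 0.31 above vehicle. At 24 h its share was 39.2% ± 1.03 in vehicle samples, 50.8% ± 1.56 after TWEAK and 46.5% ± 0.414 when the inhibitor was added (SD, n = 3), without overlap. *Fosl1* took the mirror course, from 55.8% ± 0.829 with vehicle to 49.5% ± 0.297 with TWEAK at 6 h and from 54.0% ± 1.47 to 44.2% ± 1.31 at 24 h. The 2 shares are not independent, since the other Fos genes hold only a small part: *Fosb* fell from 2.82% ± 0.153 to 1.04% ± 0.141 at 6 h. The summed level of the Fos family was 66.1 ± 0.817 RPKM with vehicle and 78.0 ± 2.83 with TWEAK at 6 h. At 24 h it was 51.3 ± 1.46 and 64.8 ± 1.23 RPKM. Reads over the 1055 bases that *Fosl1* shares with *Ccdc85b* cannot be assigned, and this limit extends to the Fos shares and sums.

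In the Jun family *Junb* gained and *Jund* lost share with TWEAK. *Junb* went from 61.3% ± 1.5 to 66.4% ± 0.581 at 6 h and from 53.9% ± 1.13 to 60.7% ± 0.673 at 24 h, while *Jund* went from 32.8% ± 1.84 to 26.3% ± 0.564 and from 40.1% ± 1.23 to 31.6% ± 0.853. *Jun* held 5.93% ± 0.356 with vehicle and 7.24% ± 0.158 with TWEAK at 6 h. In each of these TWEAK comparisons the 2 groups did not overlap and the exact permutation test gave p = 0.1, the smallest value that 3 against 3 samples can give, so none could pass 0.05. With the inhibitor at 6 h *Junb* held 66.2% ± 1.3, with samples that overlapped those of TWEAK, and at 24 h it held 57.0% ± 1.37.

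**Figure D3:**
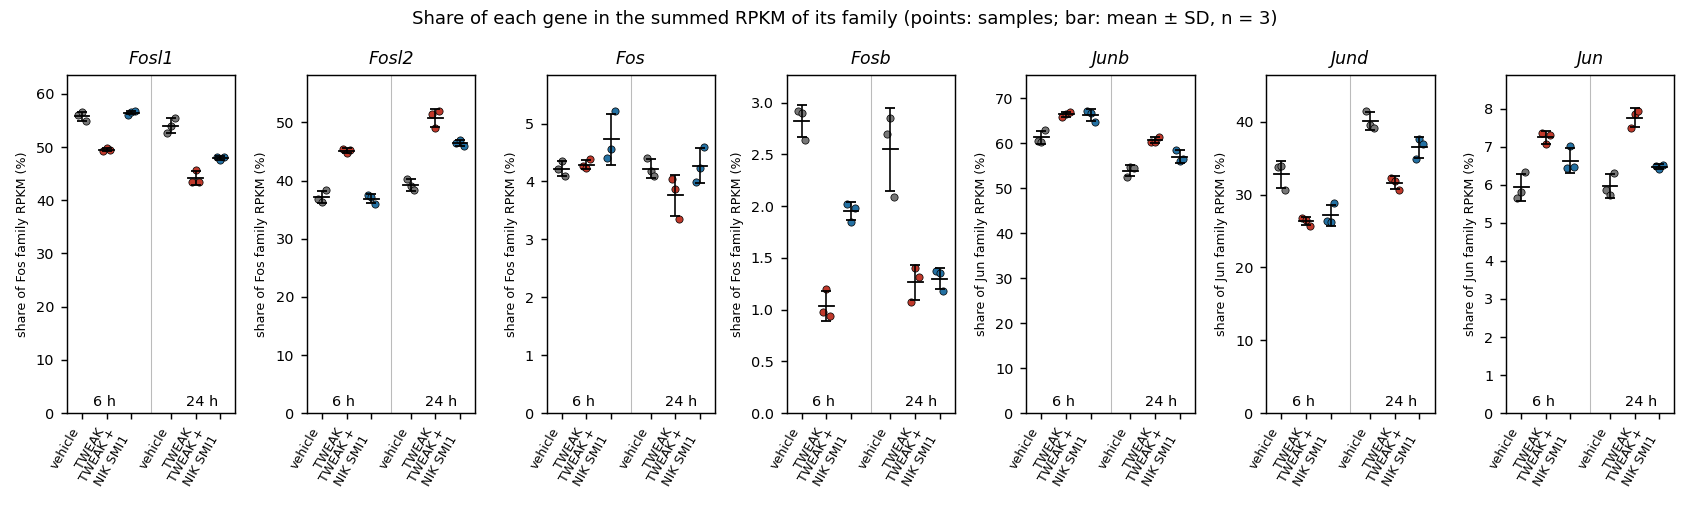
Share (%) of each gene in the summed RPKM of the Fos or Jun family (y axes from 0) in each of the 18 samples, by treatment and time (x axis); bars give the mean ± SD of 3 samples. The share of Fosl2 rises and that of Fosl1 falls with TWEAK at both times. At 6 h the Fosl2 share with NIK SMI1 (36.0% to 37.5%) overlaps that of vehicle. The levels of Fosl2 and Fosl1 were then 0.28 and 0.31 above vehicle on the log2 scale.

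Further AP-1 genes and early genes were taken from lists of textbook members, described here by counts. Of 17 other basic leucine zipper genes, 13 were tested, and 6 rose and 1 fell with TWEAK at 6 h, 5 rose and 2 fell at 24 h (median log2 change 0.02 and 0.08). Here and for the lists that follow, the shares over all genes tested were 11.7% higher and 12% lower with TWEAK at 6 h, 18.3% and 20.7% at 24 h, 5.34% and 5.7% with the inhibitor at 6 h, and 10.2% and 8.29% at 24 h. *Jdp2*, which encodes a dimerization partner of JUN that represses AP-1, rose by 1.05 at 6 h and 1.04 at 24 h and was lower with the inhibitor at both times (-0.69 and -0.78). *Maff* (0.51 and 0.42) and *Mafg* (0.38 and 0.40), small Maf genes that lack a transactivation domain, rose at both times, and the small Maf gene *Mafk* fell (-0.23 and -0.24). *Batf3* rose at 6 h (0.95) and *Maf* fell at 24 h (-0.82). *Batf3* was low and its samples overlapped at 6 h, at 0.570 to 1.33 CPM with vehicle and 1.18 to 2.55 CPM with TWEAK. With the inhibitor, 1 gene of this list was higher and 3 lower at 6 h and 0 and 3 at 24 h.

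Of 23 other immediate early genes, 21 were tested, of which 8 rose and 4 fell with TWEAK at 6 h and 11 rose and 5 fell at 24 h (median 0.05 and 0.23), the last count being near the 20.7% of all genes. *Zfp36l1*, which encodes a protein that promotes decay of AU-rich transcripts, rose by 0.81 and 0.97, *Rhob* by 0.40 and 0.72, and *Nr4a2*, an orphan nuclear receptor, by 0.46 and 0.63. *Egr3* fell by 0.85 and 1.23 and *Arc* by 0.64 and 0.85 on the log2 scale. At 24 h with the inhibitor, *Egr3* was 0.99 and *Arc* 0.25 higher than with TWEAK. *Egr3* was low, with means of 2.39 and 1.29 CPM with vehicle and 1.32 and 0.566 CPM with TWEAK at 6 h and 24 h. With the inhibitor 5 were higher and 6 lower at 6 h, and 2 were higher and 8 lower at 24 h. In vehicle, 18 of the 21 genes were lower and 1 was higher at 24 h than at 6 h (14.4% and 15.5% of all genes), the direction that 9 of the 10 factors took.

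**Figure D4:**
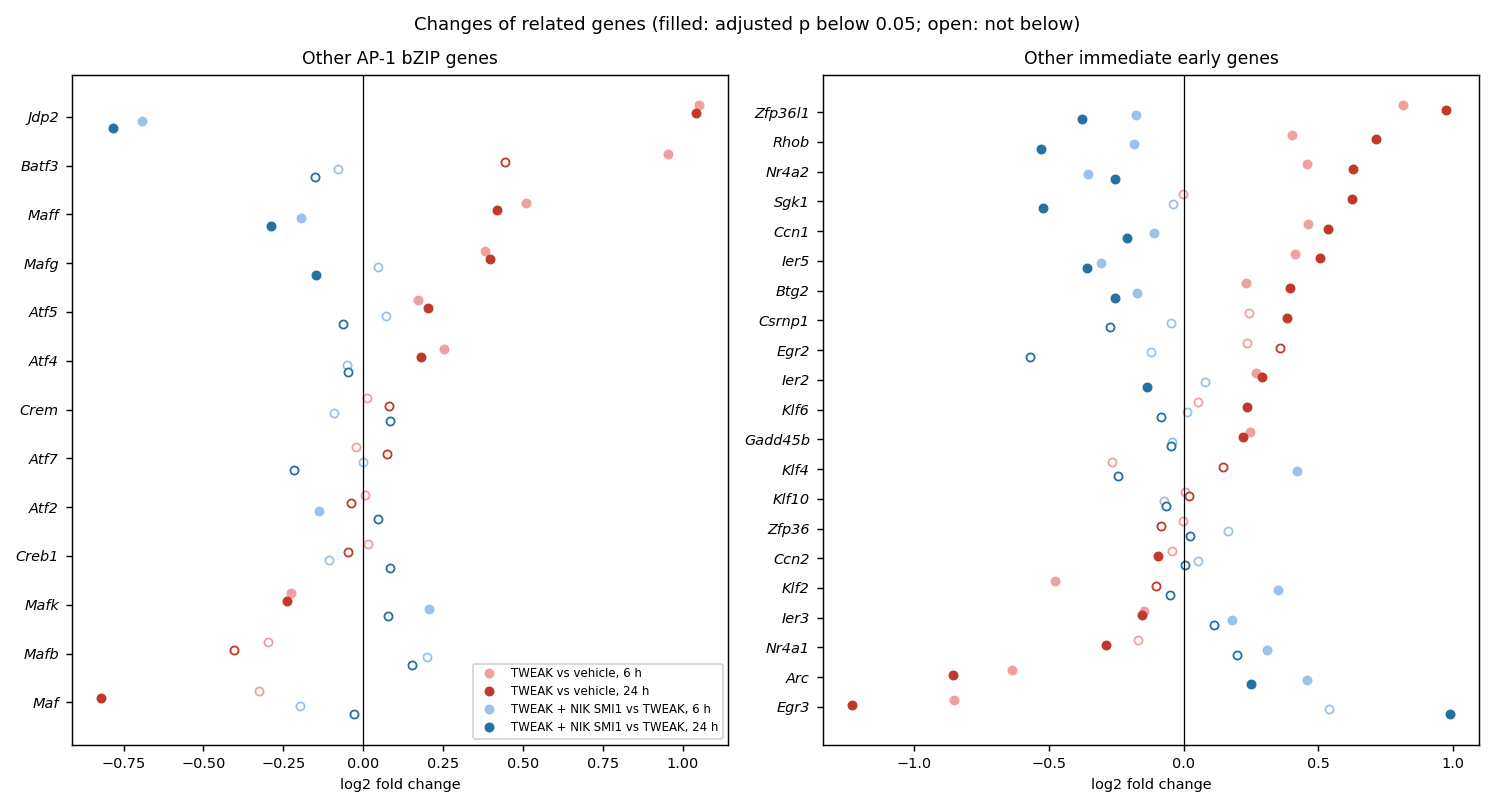
Log2 fold changes (x axis) of 13 other AP-1 basic leucine zipper genes and 21 other immediate early genes (y axis) for TWEAK against vehicle (red) and for NIK SMI1 against TWEAK (blue) at 6 h (light) and 24 h (dark), filled where the adjusted p was below 0.05. Jdp2 (1.05 and 1.04 with TWEAK) and Zfp36l1 (0.81 and 0.97) lie at the right, and Egr3 (-0.85 and -1.23) and Arc lie at the left.

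Of 25 kinases and SRF cofactors on the way to AP-1, 2 rose and 1 fell with TWEAK at 6 h and 6 rose and 4 fell at 24 h (median -0.00 and 0.00), near the 18.3% and 20.7% of all genes at 24 h, and 3 were higher and 0 lower with the inhibitor at each time. *Map3k14*, which encodes NIK itself, rose by 0.86 and 0.95 with TWEAK and was a further 0.43 and 0.33 higher with the inhibitor. *Map3k5*, the stress kinase ASK1, fell by 0.45 and 0.78. Of 19 cofactors and turnover genes, 5 rose and 2 fell at 6 h and 4 rose and 2 fell at 24 h (median 0.00 and -0.04), beside shares of 18.3% and 20.7% over all genes at 24 h, with 1 higher and 2 lower with the inhibitor at 6 h and 1 and 3 at 24 h. *Mycl*, a *Myc* paralog, rose by 1.81 and 2.17 and was lower with the inhibitor (-0.86 and -1.26). *Nab2*, which encodes a corepressor of EGR1, fell by 0.44 and 0.45 and was higher with the inhibitor (0.39 and 0.22), and *Max* did not pass the test (0.05 and 0.06).

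Textbook target genes were mixed in direction. Of 20 AP-1 targets 17 were tested, and 6 rose and 4 fell with TWEAK at 6 h and 10 rose and 4 fell at 24 h (median 0.06 and 0.15, against 11.7% and 12% of all genes at 6 h and 18.3% and 20.7% at 24 h), while 4 were higher and 6 lower with the inhibitor at 6 h and 5 and 9 at 24 h. *Mmp9*, a secreted protease, rose by 2.13 and 5.02 and was lower with the inhibitor (-1.49 and -2.48). The chemokine gene *Ccl2* rose by 3.37 and 3.61, and the adhesion receptor gene *Cd44* by 0.69 and 0.80. *Ccl2* was low, with means of 0.109 and 0.112 CPM with vehicle and 1.16 and 1.21 CPM with TWEAK. Its vehicle means lay within the 0.0585 to 0.169 CPM that 3 reads correspond to. *Spp1*, which encodes osteopontin, fell by 0.39 and 0.96 on the log2 scale.

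All 20 *Myc* targets were tested, and 2 rose and 2 fell at 6 h and 9 rose and 2 fell at 24 h (median 0.07 and 0.10). The counts at 6 h were at the level of all genes, of which 11.7% rose and 12% fell, and at 24 h 18.3% and 20.7% did. *Odc1*, the first enzyme of polyamine synthesis, rose by 0.54 at each time, and *Tfrc*, the transferrin receptor gene, fell (-0.17 and -0.50). With the inhibitor 0 *Myc* targets were higher and 1 lower at 6 h, and 1 was higher and 1 lower at 24 h. All 12 *Egr1* targets were tested, of which 7 rose and 2 fell at each time (median 0.22 and 0.16), led by the adhesion gene *Icam1* (2.60 and 3.41), while 1 was higher and 4 lower with the inhibitor at 6 h and 2 and 6 at 24 h. *Egr3* and *Nab2* stand in this list and in one above. Several of these genes are also known NF-κB targets, and the lists do not separate the 2 sources. Of 12 stress and handling genes, 8 rose and 0 fell with TWEAK at 6 h and 6 rose and 1 fell at 24 h (median 0.16 and 0.11, beside the same shares over all genes). *Chac1* was highest at 6 h (0.45). The heat shock genes *Hspa1a*, *Hspa1b*, *Hsph1* and *Hspb1* were the 4 not called at 6 h. Their means were 9.21, 41.0, 368 and 48.8 CPM with vehicle and 8.33, 38.35, 354 and 44.3 CPM with TWEAK. *Dnajb1*, a further heat shock gene, was among the 8. The part of handling in the changes of the 10 factors was not tested.

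Across the 18 samples, the log2 level of *Fosl2* ran close to that of *Rnf19b* (Pearson's r = 0.992) and *Mvp* (0.986), and that of *Myc* to *Sbno2* (0.981), *Relb* (0.979) and *Abtb2* (0.978). These are descriptions over samples that share 6 groups. *Junb* was closest to *Ier2* (0.985), *Atf3* to *Plekhg3* (0.98), *Egr1* to *Myadm* (0.986), *Fosl1* to *Rrp8* (0.984) and *Fos* to *Mark4* (0.959). *Fosb* (closest *Unc5b*, 0.918) and *Jund* (closest *Tysnd1*, 0.827) had less close partners. Among the 10 factors, *Fosl2* and *Myc* (0.974), *Fosl1* and *Egr1* (0.972), *Jun* with *Fosl2* and with *Myc*, and *Fos* with *Fosl1* (0.942 each) had the highest r.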

How the data were processed

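RNASeq was performed on 18 samples of cultured mouse RPTEC. Single-end reads were mapped by the authors with GSNAP (HTSeqGenie package) onto NCBI build 37. The deposited counts are the uniquely mapped reads in the exons of each Entrez gene, with no scaling. They also deposited RPKM values, scaled by exonic length and total reads, which were used for levels between genes and family shares. The labels' notes name DESeq2. Labels and methods differ on sequencer and read length.

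A model of 6 groups was fitted to the counts of the 18 libraries with edgeR 4.0.16 (R 4.3.3, TMM, estimateDisp, glmQLFit, glmQLFTest) for the 15521 genes with more than 10 reads in at least 4 samples. Benjamini-Hochberg adjustment was applied over all of them, a gene being called at an adjusted p below 0.05. Standard errors come from the F statistic, and 95% intervals use the fit's degrees of freedom. CPM are counts scaled by TMM library size. The floor of 3 reads covers counting error only. Differences between times were tested as interaction contrasts, and shares by two-sided exact permutation tests. Shares of a TWEAK change removed are on log2 CPM per sample with the inhibitor. The vehicle and TWEAK means were held fixed, so the SD leaves out the spread of those groups. Likeness is Pearson's r of log2(CPM + 0.5). Symbols came from RefSeq (31049 of 36528 identifiers matched). Exon overlaps came from GENCODE M21. The code was tested on simulated data.

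The members, gene lists and tests were chosen with earlier results of these data known. Named genes were all 10 members, from each list called genes among the 4 with the largest change in a comparison, the genes most like each member, and the leading or defining markers. A few genes that this rule names are not reported here. *Max*, *Mafk*, *Ccdc85b*, *Junos* and *Prdx2* were added for role or overlap after their values were seen, as were the heat shock genes. Alternatives were DESeq2 1.42.0, its size factors in edgeR, no filter, filterByExpr, fits of only the groups compared, and leaving out each sample. No source names separate animals or preparations for the 3 samples of a group, so p-values measure the spread between cultured samples. The labels give no replicate numbers, and sample numbers are only names.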

Additional observations from a re-analysis of the deposited data

Results flagged for a closer look

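The following effects differed between 6 h and 24 h by the test of the difference itself (log2 scale, 24 h minus 6 h, edgeR's quasi-likelihood test with Benjamini-Hochberg adjustment). For TWEAK against vehicle these were *Fosl2* (0.18, adjusted p = 0.0209), *Atf3* (0.35, adjusted p = 0.00476), *Egr1* (-0.29, adjusted p = 0.00522) and *Myc* (0.25, adjusted p = 0.000875). For TWEAK with NIK SMI1 against TWEAK these were *Fosb* (-1.15, adjusted p = 0.00058), *Fosl1* (-0.34, adjusted p = 0.00105), *Jun* (-0.38, adjusted p = 0.00117), *Junb* (-0.33, adjusted p = 0.00096), *Atf3* (-0.39, adjusted p = 0.00323) and *Myc* (-0.28, adjusted p = 0.000774). The islet genes were present at 6 h and near absent with the inhibitor at 24 h, so they move with the NIK SMI1 differences. They were also lower with TWEAK than with vehicle at 24 h. Their part in the TWEAK and NIK SMI1 differences was not tested. Groups of 3 samples were too small to look for single outlying samples.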

How the results depend on the processing

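No paired analysis was possible because the labels give no replicate numbers. The counts of the 10 genes called, taken per comparison and setting, stayed within 1.5 times their main value. This held for all 47 such counts under other settings and all 66 such counts without 1 library. Without 1 library they ranged from 7 to 8 for TWEAK at 6 h, 4 to 6 for TWEAK with NIK SMI1 against vehicle at 24 h, and 3 to 6 for the change of the TWEAK effect with time. Of 470 single values under other settings, 3 lost and 6 gained their call and 1 turned sign (*Egr1* for TWEAK at 24 h, 0.088, not called). Of 660 without 1 library, 16 lost and 13 gained their call, and 9 turned sign. Those that turned sign were values that were not called, of *Egr1* for TWEAK at 24 h (-0.083 to 0.027), for NIK SMI1 against TWEAK at 24 h *Fos* (-0.14 to 0.019), *Jund* (-0.05 to 0.079) and *Egr1* (-0.085 to 0.025), *Jund* with time in vehicle (-0.129 to 0.019), and *Egr1* for the change of the NIK SMI1 effect (-0.11 to 0). Over all genes, NIK SMI1 against TWEAK at 24 h gave 1432 calls with the reduced TWEAK group in place of 2866, and NIK SMI1 against vehicle at 6 h gave 1221 in place of 2163 when only the groups compared were fitted. Without 1 library, calls over all genes ranged from 1138 to 1825 for NIK SMI1 against TWEAK at 6 h (lowest without TWEAK with NIK SMI1 sample 2). For TWEAK with NIK SMI1 against vehicle at 6 h they ranged from 1401 to 2324 (lowest without the same library). The range was 388 to 1086 for the change of the NIK SMI1 effect, against 734 in the fit of all libraries. With 3 samples a group, differences under about 0.1 on the log2 scale lay within most intervals, and those of *Fos* and *Fosb*, with the fewest reads, were wider.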
